A study of Rattus norvegicus with 12 samples.

Results

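Podocyte nuclei of the rat kidney were examined here across lean, obese and treated obese animals. Members were the nuclei whose deposited high-level cell type is Podo. There were 2533 of them among 217132 nuclei (1.17%) from 12 rats. For its podocyte subclusters the paper used a smaller set, kept after repeated clustering. Which of the nuclei here it left out was not examined. The single-nucleus RNA sequencing study used kidneys of male lean and obese ZSF1 rats (ZSF1-LeprfaLeprcp/Crl). This line carries leptin receptor mutations, and its obese form becomes diabetic and develops kidney disease. The paper treats lean against obese as a contrast of genotype. In 4 groups of 3 rats each, the study asked how soluble guanylate cyclase (sGC), the nitric oxide receptor that makes cGMP, bears on this disease. Lean rats were given neither drug nor vehicle. Untreated obese rats were given vehicle, a mixture of ethanol, Kolliphor and water. The sGCact group was obese and was given the sGC activator Runcaciguat (BAY 1101042) at 3 mg/kg, 2 doses a day. The sGCstim group was obese and was given the sGC stimulator BAY 1165747 at 3 mg/kg, 1 dose a day. Dosing began at 13 to 14 weeks of age and lasted 12 weeks. The comparison of obese with lean rats therefore differs in genotype and also in vehicle, and the 2 drugs differ in doses per day. The 3 sequenced rats of a group are part of 6 lean rats or of 10 rats in each obese group.

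Podocytes are epithelial cells that wrap the glomerular capillaries with interlocking foot processes. The slit diaphragm between the processes, built around nephrin, the product of Nphs1, completes the filtration barrier that holds back plasma protein. Mature podocytes are post-mitotic, so podocytes that detach are poorly replaced, and their loss is a known feature of diabetic kidney disease. They share the glomerulus with a capillary endothelium. The authors' cluster GEC(Meis2+), named for glomerular endothelium, serves below as a companion population. It held 12514 of the 13909 endothelial nuclei, and its name was not checked against markers. Whether it also holds endothelium from outside the glomerulus was not tested.

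Each nucleus came with a number of unique molecular identifiers (UMIs, 1 for each transcript molecule read), a number of genes seen, the mitochondrial part of the UMIs in percent, S and G2M phase scores and a place on a 2-dimensional map (UMAP). Values of single genes, Nphs1 included, were not analysed here, so the name podocyte is that of the authors and was not checked against markers. For the same reason, whether RNA of other cells was present in podocyte nuclei was not tested. The 25 low-level clusters held the same nuclei under the same name. On the map, 99.6% of the 15 nearest neighbours of podocyte nuclei were podocyte nuclei too, and 3 nuclei, of RK5_4, RK46_4 and RK58_4, had fewer than 50% such neighbours. The 140 neighbours of another cluster, out of 37995, were led by GEC(Meis2+) with 34 and the proximal tubule clusters PTnov2 with 30 and PTnov1 with 25. The libraries held 10488 to 43484 nuclei. The barcodes of 134 podocyte nuclei (5.29%) also occurred in another rat's library, against 5.42% of all nuclei, and 1 barcode was shared by podocytes of 2 rats, RK9_4 and RK45_4.

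The podocyte nuclei of 3 rats stood apart. These were RK7_4 and RK9_4 of the untreated obese group and RK61_4 of the sGCstim group. These rats held 56, 210 and 206 podocyte nuclei, 472 in all (18.6%), with few UMIs and a high mitochondrial percentage. Podocytes were not alone in this, since in the same 3 libraries the proximal tubule nuclei were also low in UMIs and high in mitochondrial percentage, and so in part were the stroma nuclei, while the GEC(Meis2+) nuclei were not, as given below. Whether foreign RNA makes up part of the podocyte values of these rats was not tested. The part that these libraries have in the results was not tested beyond leaving them out. Differences without them are given where the direction turned or a call was lost. Elsewhere a difference can shrink without them too, and RK16_4 then stands alone for the untreated obese group.

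In lean kidneys podocytes were rich in RNA. The median number of UMIs per podocyte nucleus was 4204 in RK1_4, 3024 in RK3_4 and 2277 in RK5_4. In untreated obese rats it was 590 in RK7_4, 934.5 in RK9_4 and 2156 in RK16_4. All 3 obese values lay below all 3 lean values, but RK16_4 came close to the lowest lean rat. Under sGCact the medians were 3201 in RK43_4, 2790 in RK45_4 and 2654 in RK46_4, within the range of the lean rats and above every untreated obese rat. Under sGCstim they were 2606 in RK57_4, 2554 in RK58_4 and 842 in RK61_4, so the third rat fell in the range of the low obese rats. The group means were 3168 ± 971 UMIs (SD, n = 3) for lean, 1227 ± 823 for untreated obese, 2882 ± 285 for sGCact and 2001 ± 1004 for sGCstim.

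**Figure D1:**
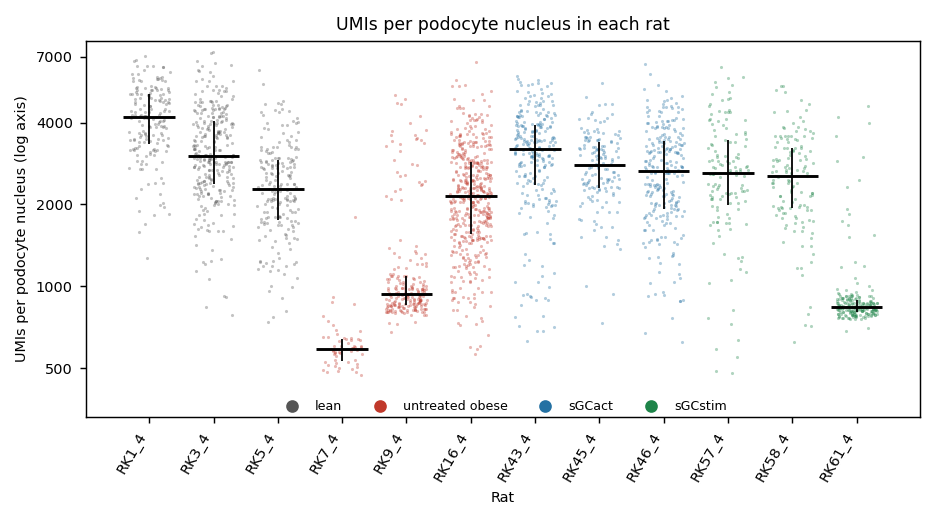
UMIs per podocyte nucleus on a log axis, by rat and group, with each point a nucleus, the thick line the median and the thin line the range from the 25th to the 75th percentile. The nuclei of RK7_4, RK9_4 and RK61_4 are massed below 1000 UMIs, while those of the other 9 rats spread mostly above 1500 UMIs.

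Podocyte UMIs fell in untreated obese rats against lean rats and rose under sGCact against untreated obese rats. The limma fit of log2 median UMIs over the 8 high-level types gave -1.54 ± 0.45 (SE), a fold of 0.345, for untreated obese minus lean (adjusted p = 0.0122). In that comparison 37.5% of the types passed (podocytes, proximal tubule and stroma, all lower in the obese rats). For sGCact minus untreated obese the difference was 1.44 ± 0.45, a fold of 2.71 (limma adjusted p = 0.0465), and podocytes were the 1 type that passed (12.5%). The sGCstim difference from untreated obese rats, 0.75 ± 0.45 on the log2 scale, did not pass (limma adjusted p = 0.741), nor did that of sGCact minus sGCstim, 0.69 ± 0.45 (adjusted p = 0.712). In each of these 2 comparisons 0% of the types passed, with 0 at an unadjusted p under 0.05. The sGCact medians were nonetheless above the sGCstim medians in 9 of 9 pairs of rats. By the exact two-sided permutation test on the medians, whose smallest possible p for 3 rats against 3 is 0.1, the p was 0.1 for obese against lean, for sGCact against untreated obese and for sGCact against sGCstim, and 0.3 for sGCstim against untreated obese.

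These calls rested on single rats. Without RK7_4, RK9_4 and RK61_4 the obese minus lean difference was -0.51 (limma adjusted p = 0.195) and the sGCact difference 0.41 (adjusted p = 0.618), with RK16_4 as the only untreated obese rat and its spread taken from the other groups. The obese minus lean call was also lost without RK1_4 (limma adjusted p = 0.0772) or without RK7_4 (0.0803). The sGCact call was lost without RK1_4, RK3_4, RK5_4, RK7_4, RK9_4, RK43_4, RK45_4 or RK58_4, of which those outside the comparison carry part of the estimated spread. The limma adjusted p was then 0.0547 (without RK3_4) to 0.359 (without RK7_4). In turn, leaving out RK16_4 brought the sGCstim minus untreated obese difference to 1.26 (limma adjusted p = 0.0116), and leaving out RK61_4 brought it to 1.28 (adjusted p = 0.00726). Among nuclei with at most 1% mitochondrial UMIs the limma differences were -0.82 for obese minus lean (adjusted p = 0.0615) and 0.74 for sGCact (adjusted p = 0.138).

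The share of podocyte nuclei with at least 1500 UMIs drew the same line between rats. It was 99.4%, 95.6% and 85.4% in the lean rats RK1_4, RK3_4 and RK5_4. In the untreated obese rats it was 1.79% in RK7_4, 15.7% in RK9_4 and 78.5% in RK16_4. Under sGCact it lay between 87.8% and 95.3%, and under sGCstim it was 87.3% and 90.4% in RK57_4 and RK58_4 but 6.80% in RK61_4. The numbers of expressed genes followed. The median was 1858, 1486 and 1174 genes in the lean rats, 436, 644 and 1199 in the untreated obese rats RK7_4, RK9_4 and RK16_4, 1421, 1250 and 1421 under sGCact, and 1333, 1383 and 638 under sGCstim, the last in RK61_4.

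Podocytes changed place among the cell types of their own kidney. In 9 of the 12 rats they had the highest median UMIs of the 8 types. In RK9_4 they ranked 7th and in RK7_4 and RK61_4 they ranked 8th. Relative to the geometric mean of the medians of the other 7 types, podocyte UMIs were 1.71-fold, 1.65-fold and 1.52-fold in the lean rats. The fold was 0.579 in RK7_4, 0.613 in RK9_4 and 1.80 in RK16_4 of the untreated obese group. It was 2.70, 2.21 and 1.94 under sGCact, and 2.06, 1.76 and 0.676 under sGCstim. On this relative measure the sGCact rats were above both the lean and the untreated obese rats. Their podocyte medians themselves lay within the lean range, so the higher fold over lean also reflects the medians of the other types. Against the untreated obese rats the fold was higher in 9 of 9 pairs, a difference of 1.39 on the log2 scale (exact two-sided permutation p = 0.1, the smallest possible). RK16_4, at 1.80, lay close to the lowest sGCact rat, at 1.94. For untreated obese minus lean the log2 difference was -0.92 (exact permutation p = 0.4). It was 0.15 with RK16_4 as the only untreated obese rat, so the direction rests on RK7_4 and RK9_4. For sGCstim minus untreated obese it was 0.65 (exact permutation p = 0.3), and for sGCact minus sGCstim it was 0.75 (exact permutation p = 0.2).

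**Figure D2:**
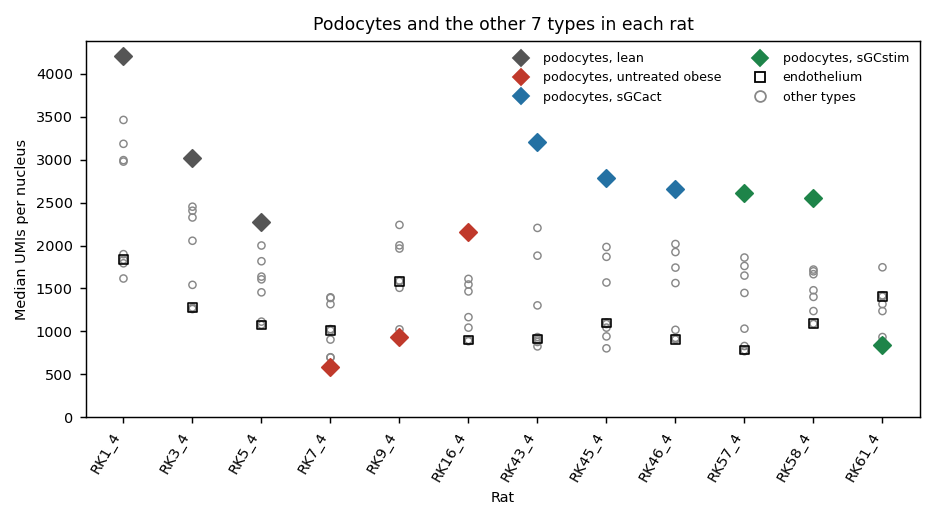
Median UMIs per nucleus in each rat, with podocytes as filled diamonds, coloured by group. Open circles are the other 7 types and the cluster GEC(Meis2+), which is part of the endothelium. An open square also marks the endothelium as a whole. The podocyte diamond is the highest symbol in 9 rats and lies at or near the bottom in RK7_4, RK9_4 and RK61_4.

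The GEC(Meis2+) nuclei of the same kidneys did not share the low UMIs. Their median was 1027 UMIs in RK7_4, 1592 in RK9_4 and 1421 in RK61_4, where the other 9 rats ranged from 769.5 in RK57_4 to 1793 in RK1_4. Podocyte nuclei held 2.34, 2.40 and 2.11 times the UMIs of GEC(Meis2+) nuclei in the lean rats and 2.35 to 3.58 times in the 6 rats RK16_4, RK43_4, RK45_4, RK46_4, RK57_4 and RK58_4. In RK7_4, RK9_4 and RK61_4 they held 0.574, 0.587 and 0.593 times as many. The proximal tubule, the reabsorbing segment next to the glomerulus, was low in the same 3 rats, with medians of 699, 892 and 885 UMIs, and stroma had 696, 1024 and 934.5. The proximal tubule was also low in the sGCact rats RK43_4 and RK45_4, with 934 and 803 UMIs, where podocytes held 3201 and 2790. Low stroma medians were not confined to the 3 rats either, with 877 UMIs in RK43_4, 942 in RK45_4 and 926 in RK46_4.

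The low podocyte medians differed in their place within the library. In RK7_4 the podocyte median lay at the 17.8 percentile of all nuclei of the library and in RK61_4 at the 29.1 percentile. In RK9_4 it lay at the 60.4 percentile, above the library median of 901 UMIs, and in the other 9 rats between 75.1 and 93.0. The lowest nucleus of any type held 468 UMIs in RK7_4, 379 in RK9_4 and 639 in RK61_4. The podocyte median was 1.26, 2.47 and 1.32 times that value, against 3.60 to 6.34 times in the other 9 rats. Podocyte nuclei with fewer than 1000 UMIs made up 98.2%, 63.8% and 90.3% of podocytes in these 3 rats and at most 6.74% elsewhere. Of all other nuclei of the same libraries, 62.0%, 72.8% and 50.0% were under this number, so in RK9_4 podocytes were under it less often than the rest. For GEC(Meis2+) the share was 46.7%, 8.00% and 19.9% in these 3 rats, within the 0.611% to 65.3% of the other 9.

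Mitochondrially encoded transcripts are made outside the nucleus, and their percentage is a common quality measure of nuclear preparations. In the podocyte nuclei of 9 rats the median was near 0. It was 0.103%, 0.0910% and 0% in the lean rats, 0.0430% in RK16_4, 0.136%, 0% and 0% in the sGCact rats, and 0% in RK57_4 and RK58_4. In RK7_4 it was 5.74%, in RK9_4 5.65% and in RK61_4 4.73%, far above the other 9 rats. In these 3 rats, and in no other, podocytes ranked first among the 8 types. The proximal tubule came next, with medians of 3.80% in RK7_4, 3.97% in RK9_4 and 4.70% in RK61_4, the last practically equal to the podocytes. Stroma had 0.524%, 1.65% and 3.70%, and GEC(Meis2+) 0.110%, 0.247% and 0.203%. These types were not near 0 in every other rat. The proximal tubule had 2.14% in RK43_4 and 1.48% in RK45_4, and stroma had 3.01% in RK43_4. In the other 9 rats the GEC(Meis2+) median ranged from 0.187% in RK58_4 to 2.68% in RK16_4.

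**Figure D3:**
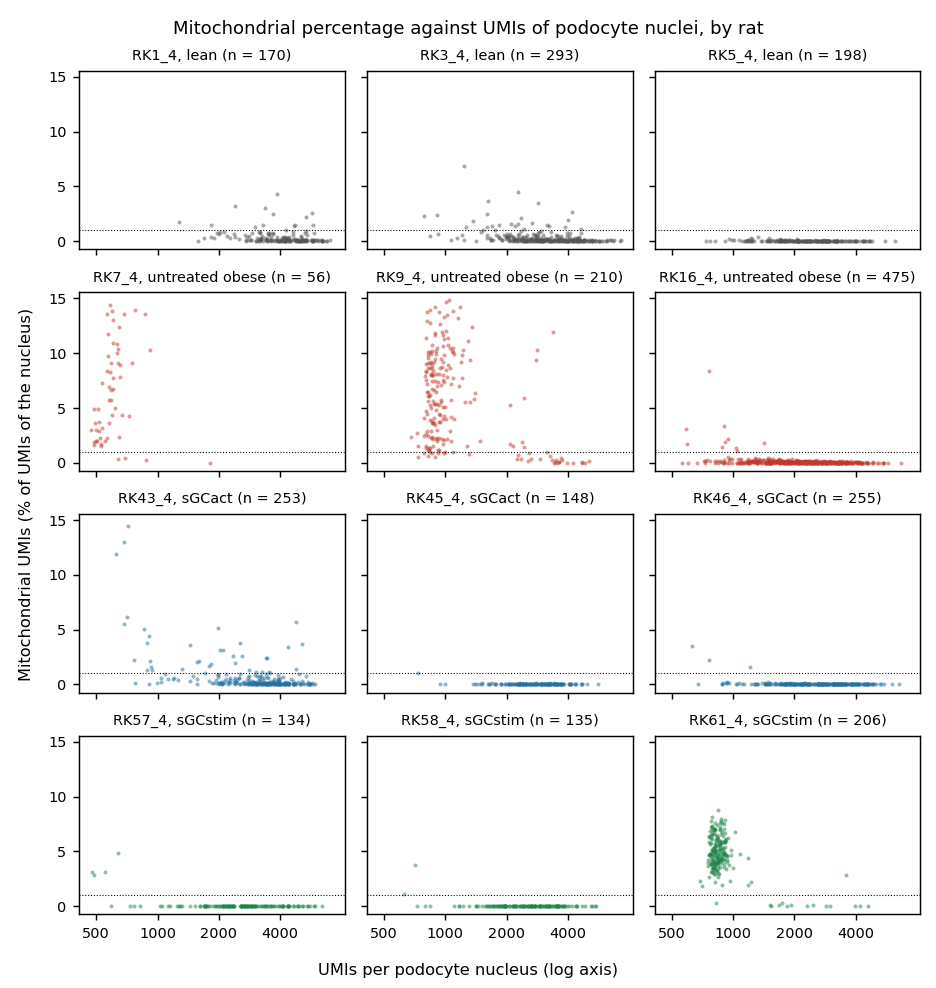
Percentage of mitochondrial UMIs against UMIs (log axis) of each podocyte nucleus, 1 panel for each rat, with a dotted line at 1%. In RK7_4, RK9_4 and RK61_4 most points form a cloud of few UMIs and high percentage, RK9_4 has a second band of nuclei above 2000 UMIs, and in the other rats nearly all points lie along the axis.

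Group differences in this percentage did not pass the test. On log2(percentage + 0.1), which understates changes of low percentages, the limma difference was 3.42 ± 1.61 (SE) for untreated obese minus lean (adjusted p = 0.209) and -3.66 ± 1.61 for sGCact minus untreated obese (adjusted p = 0.318). It was -2.21 for sGCstim minus untreated obese (limma adjusted p = 0.532) and -1.45 for sGCact minus sGCstim (adjusted p = 0.626). None of the 8 types passed in any of the 4 comparisons (0%), and at an unadjusted limma p under 0.05 there was 1 type in the sGCact minus untreated obese comparison and 1 in obese minus lean. The outcome depended on the fit and on single rats. In a fit of the untreated obese and lean groups alone their difference passed (3.42, limma adjusted p = 0.0335), as did the sGCact difference with means over nuclei in place of medians (-3.08, adjusted p = 0.0453). Without RK16_4 the obese minus lean difference was 5.20 (limma adjusted p = 0.0336) and the sGCact difference -5.44 (adjusted p = 0.0251). Without RK7_4, RK9_4 and RK61_4 the obese minus lean difference was -0.14 (limma adjusted p = 0.868). Without RK61_4 alone, or without all 3 rats, the sGCact minus sGCstim difference turned to 0.41. The podocyte median of RK16_4, 0.0430%, lay within the 0% to 0.136% of the sGCact rats, so the sGCact difference from untreated obese rats rests on RK7_4 and RK9_4.

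Counted by nuclei, 8.24%, 8.19% and 0% of podocytes in the lean rats had over 1% mitochondrial UMIs. The share was 92.9% in RK7_4, 84.3% in RK9_4 and 2.11% in RK16_4. Under sGCact it was 15.02%, 0.676% and 1.18%, and under sGCstim 2.99%, 1.48% and, in RK61_4, 93.2%. The means differed by 54.3 percentage points between untreated obese and lean rats (exact two-sided permutation p = 0.3) and by -54.1 between sGCact and untreated obese rats (exact permutation p = 0.2), with RK16_4 on the lean side both times. For sGCstim minus untreated obese the difference was -27.2 percentage points (exact permutation p = 0.8). Without the 3 rats, untreated obese minus lean was -3.37 percentage points and sGCact minus untreated obese 3.52.

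The 2 measures were linked within rats. Podocyte nuclei over 1% held a median of 582 UMIs in RK7_4, 914 in RK9_4 and 835 in RK61_4. The 33 podocyte nuclei of RK9_4 at or under 1% held 3156 UMIs, and the 14 of RK61_4 held 2123, close to or within the 2179 to 4213 UMIs of such nuclei in the other 9 rats, while the 4 of RK7_4 held 781. In genes the 33 nuclei of RK9_4 were lower, with a median of 907 against 1173.5 to 1869.5 in such nuclei of the other 9 rats. Over the other 9 rats the 1965 nuclei at or under 1% held a median of 2753 UMIs and the 96 nuclei over 1% held 1751. Across the nuclei of a rat, Spearman's rho between UMIs and mitochondrial percentage ranged from -0.468 in RK3_4 to -0.109 in RK45_4, apart from 0.344 in RK7_4. UMIs stand in the denominator of the percentage, so these rho values describe the nuclei and were not tested. On the map, nuclei of the 3 rats had neighbours from these rats in 28.0% to 34.2% of cases, where nuclei of the other rats had them in 12.4% to 21.6%, so after the batch correction of the authors they were enriched near each other without forming an island.

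Within RK9_4 podocytes fell apart by UMIs and again by genes. No podocyte nucleus of this rat lay between 1500 and 2000 UMIs, while 33 had more than 2000. This set is not that of the 33 nuclei at or under 1% mitochondrial UMIs, as 24 nuclei were in both. In the 33 nuclei above 2000 UMIs the median was 3269 UMIs and 858 genes, whereas in the 10 other rats with such nuclei the median was 1289 to 1872 genes. Genes per 100 UMIs were 33.7 in RK9_4 and 43.0 to 51.0 in the other 10 rats. The 33 nuclei were of 2 kinds, with none between 932 and 1230 genes. A set of 13 held 1230 to 1547 genes with at most 0.293% mitochondrial UMIs. The remaining 20 held 646 to 932 genes from 2075 to 3712 UMIs, at a median of 0.922% mitochondrial UMIs, and 9 of them were above 1%. Such nuclei, with at least 2000 UMIs but under 1000 genes (a limit set in this gap after the values were seen), were 20 of 33 podocytes in RK9_4 and 1 of 1538 in the other rats, that 1 in RK5_4. In the other 7 types of RK9_4 they were 34 of 3543 nuclei, 14 of them in the distal type DCT/CNT/PC. In RK7_4, with no podocyte above 2000 UMIs, they were 59 of 118 nuclei of DCT/CNT/PC, 11 of 51 of LOH, 9 of 42 of the intercalated type IC and 15 of 1097 of the proximal tubule, so several types of that library held them.

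At matched UMIs the same nuclei of RK9_4 were compared with other rats and types. Among podocyte nuclei of 1600 to 3200 UMIs, RK9_4 had a median of 822 genes (16 nuclei, all of them among the 33 above). The 13 nuclei with more genes had a median of 3752 UMIs and the other 20 one of 2604. This range therefore leaves out most of the 13. RK61_4, with 8 such nuclei, had 1193 genes. The remaining 9 rats with at least 5 such nuclei lay between 1174 genes in RK5_4 and 1486 genes in RK1_4, and RK7_4 had 1 nucleus in this range. The other 7 types of RK9_4 had medians of 1166 to 1321 genes in the same range of UMIs. Podocyte nuclei of 1600 to 3200 UMIs in RK9_4 thus fell below every other type with at least 5 such nuclei in any rat, the lowest of which had 907 genes (the DCT/CNT/PC type of RK7_4).

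**Figure D4:**
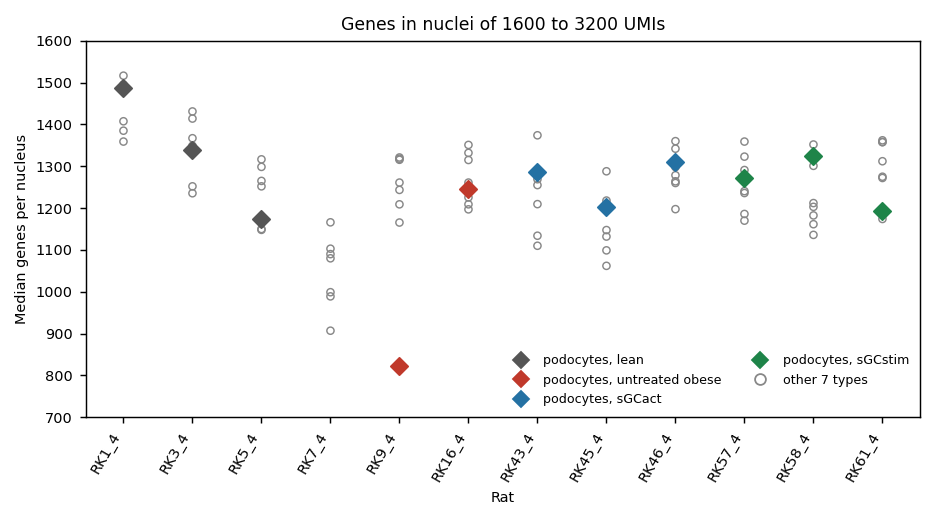
Median genes per nucleus among nuclei of 1600 to 3200 UMIs, for podocytes (filled diamonds, coloured by group) and the other 7 types (open circles) with at least 5 such nuclei in each rat. The axis begins at 700 genes. The RK9_4 diamond, at 822 genes, is the lowest symbol, and RK7_4 has no diamond.

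In the range of 800 to 1600 UMIs podocytes had 877 and 821 genes in the lean rats RK3_4 and RK5_4. They had 628 in RK9_4, 851.5 in RK16_4 and 648 in RK61_4, and 775 to 926 in the 5 remaining rats. RK1_4 and RK7_4 had fewer than 5 nuclei in this range and were left out. RK9_4 and RK61_4 were the lowest, and other types of these 2 rats were low there too. In RK9_4 the proximal tubule had 622 genes, DCT/CNT/PC 664, the loop of Henle (LOH) 673.5 and stroma 679, and in RK61_4 the proximal tubule had 646 and stroma 676. GEC(Meis2+) had 953 and 917. The differences between groups were -109 genes for untreated obese minus lean (exact two-sided permutation p = 0.667, n = 2 and 2) and 123 for sGCact minus untreated obese (exact permutation p = 0.4, n = 3 and 2). Without RK9_4 the obese minus lean difference was 2.50 genes, so its direction rests on that rat. The sGCact minus untreated obese difference was then 11.2 genes. For sGCact minus sGCstim it was 71.0 genes (exact permutation p = 0.6), and -0.833 without RK61_4.

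The number of podocytes was the least stable measure. Their share of all nuclei was 1.02% in RK1_4, 1.93% in RK3_4 and 1.17% in RK5_4. In untreated obese rats it was 0.531% (95% Wilson interval 0.409 to 0.688) in RK7_4, 0.483% (0.422 to 0.553) in RK9_4 and 3.62% (3.31 to 3.95) in RK16_4, the lowest pair and the highest value of the series in 1 group. It was 1.19%, 0.685% and 2.43% under sGCact and 1.08%, 1.10% and 0.884% under sGCstim. The intervals cover counting error only, and the value of RK16_4 lay outside those of the other 2 rats of its group. RK16_4 gave 475 of the 741 podocyte nuclei of the untreated obese group (64.1%). A smaller share of nuclei can come from fewer podocytes, from fewer podocyte nuclei recovered, or from more nuclei of other types, which cannot be told apart here.

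No difference in podocyte share passed. The limma difference in log odds was -0.30 ± 0.54 (SE) for untreated obese minus lean (adjusted p = 0.587), a comparison in which 12.5% of the types passed, namely 1, the loop of Henle. It was 0.25 for sGCact minus untreated obese (limma adjusted p = 0.650), 0.04 for sGCstim minus untreated obese (adjusted p = 0.946) and 0.21 for sGCact minus sGCstim (adjusted p = 0.976). In these 3 comparisons 0% of types passed by limma, none at an unadjusted p under 0.05, and edgeR called none either. Without RK16_4 the obese minus lean difference was -0.97 (limma adjusted p = 0.0343). Without RK7_4, RK9_4 and RK61_4, when RK16_4 alone stands for the group, it was 1.03 (limma adjusted p = 0.194). When proximal tubule nuclei were left out of the total it was 0.67 (limma adjusted p = 0.130), the opposite direction.

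Set against GEC(Meis2+) nuclei, podocyte nuclei were more numerous in each untreated obese rat than in any lean rat, but not when set against stroma. There were 9.44, 16.7 and 12.5 podocyte nuclei per 100 GEC(Meis2+) nuclei in the lean rats RK1_4, RK3_4 and RK5_4. In the untreated obese rats there were 19.2 in RK7_4, 49.4 in RK9_4 and 36.1 in RK16_4, all above the highest lean rat. Under sGCact there were 20.9, 18.4 and 31.0, and under sGCstim 16.9, 15.8 and 24.3. The means were 12.8 ± 3.63 (SD, n = 3), 34.9 ± 15.1, 23.4 ± 6.66 and 19.0 ± 4.63 in this order of groups.

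**Figure D5:**
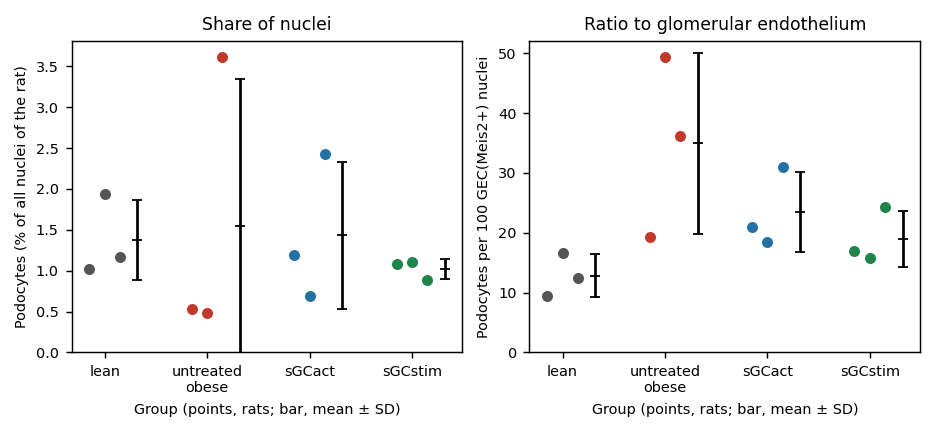
Podocyte nuclei as a percentage of all nuclei (left) and per 100 GEC(Meis2+) nuclei (right), with each point a rat and the bar the mean ± SD of 3 rats (the lower end of the untreated obese bar on the left is below 0 and is not drawn). On the left the untreated obese rats hold both the lowest values and the highest, 3.62%, and on the right all 3 lie above the lean rats.

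On the log2 scale the ratio differed by 1.38 between untreated obese and lean rats (exact two-sided permutation p = 0.1, the smallest possible, higher in 9 of 9 pairs). It was -0.51 for sGCact minus untreated obese (exact permutation p = 0.3), -0.80 for sGCstim minus untreated obese (exact permutation p = 0.2) and 0.29 for sGCact minus sGCstim (exact permutation p = 0.4). With stroma nuclei in place of GEC(Meis2+) the obese minus lean difference was 0.44 (exact permutation p = 0.6), and the groups overlapped. The numbers of GEC(Meis2+) nuclei moved too, with 1590 to 1801 in the lean rats, 291, 425 and 1315 in RK7_4, RK9_4 and RK16_4, and 792 to 1208 in the treated rats. The direction depended on which nuclei were counted. Among nuclei with at most 1% mitochondrial UMIs the obese minus lean difference was -0.76 (exact permutation p = 0.8), and among nuclei of at least 1000 UMIs it was -0.46 (exact permutation p = 0.8). The podocytes of RK7_4 and RK9_4, but not their GEC(Meis2+) nuclei, are mostly removed by those limits. The 1% limit in turn removes most GEC(Meis2+) nuclei of RK1_4, RK3_4, RK16_4 and RK43_4, whose medians were 1.16%, 2.31%, 2.68% and 2.28%. With that limit the log2 ratio moved from -2.58 to -1.01 in RK3_4 and from -1.47 to 1.39 in RK16_4.

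The cell-cycle scores of the authors measure the expression of S phase and G2M phase genes against control genes. In 9 rats podocytes had the lowest mean G2M score of the 8 types. It was -0.0266, -0.0257 and -0.0247 in the lean rats, -0.0293 in RK16_4, -0.0319, -0.0381 and -0.0247 under sGCact, and -0.0235 and -0.0251 in RK57_4 and RK58_4. In RK7_4 it was 0.00532, in RK9_4 -0.00488 and in RK61_4 0.00175, where podocytes ranked 2nd or 3rd from the top. The S score was the lowest of the 8 types in 9 rats as well, here with RK9_4 and without RK5_4. The share of podocyte nuclei called G1 was 50.0% to 62.4% in the lean rats and 53.7% to 66.9% in RK16_4, the sGCact rats, RK57_4 and RK58_4, against 33.9%, 38.1% and 31.6% in RK7_4, RK9_4 and RK61_4. These are the nuclei with few UMIs, from which scores are less precise, and no cycling is read from the calls.

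Neither score differed between groups past the threshold. The limma difference in G2M score was 0.0161 for untreated obese minus lean (adjusted p = 0.185), where 37.5% of the types passed (proximal tubule, stroma and loop of Henle, all higher). It was -0.0220 for sGCact minus untreated obese (limma adjusted p = 0.0721), -0.00600 for sGCstim minus untreated obese (adjusted p = 0.673) and -0.0160 for sGCact minus sGCstim (adjusted p = 0.347). In these 3 comparisons 0% passed, with 4, 0 and 1 types at an unadjusted limma p under 0.05. Without RK16_4 the limma differences passed for untreated obese minus lean (0.0259, adjusted p = 0.00935) and for sGCact minus untreated obese (-0.0318, adjusted p = 0.00984), and without RK61_4 the latter passed too (adjusted p = 0.0461). Without RK7_4, RK9_4 and RK61_4 the obese minus lean difference was -0.00360. RK16_4, then the only untreated obese rat, had a mean of -0.0293, within the -0.0381 to -0.0247 of the sGCact rats. The S score differences lay between -0.00735 and 0.00570 (limma adjusted p from 0.506 to 0.802). Of the 8 types, 12.5% passed for obese minus lean (stroma) and 0% in the other 3 comparisons, where 0, 1 and 1 types had an unadjusted limma p under 0.05.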

How the data were processed

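Male rat kidney nuclei were profiled by droplet 3′ RNA sequencing in 12 rats, 3 per group. According to the submitters' processing notes, the authors used Cell Ranger 6, Seurat and genome build rn6. Per the study's methods the authors took out ambient RNA and doublets, kept nuclei with 200 to 3000 genes and up to 15% mitochondrial UMIs, and clustered them after batch correction. UMIs per nucleus were deposited as counts, without normalization, and expressed genes as whole counts. Mitochondrial content was deposited as a percent, over all UMIs of the nucleus. S and G2M phase values are scores by the authors. Phase calls, type names and map positions are further values from the authors. There were 0 columns that could not be tied to samples. Rats were tied to groups, and to no replicate number, by the group name in the table. Counts per gene and the study's subclusters of podocytes were not analysed here.

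Podocytes were taken by the authors' high-level type. The members and the comparisons were chosen with earlier results of these data known. For each rat and each of 8 types the share (log odds, with 0.5 added to the nuclei of the type and 1 to all nuclei), median UMIs (log2), median mitochondrial percentage (log2 with 0.1 added) and mean phase scores were tested with limma 3.58.1 (R 4.3.3) over 12 rats with 8 residual degrees of freedom. Benjamini-Hochberg adjustment was over the 8 types of each contrast (threshold 0.05). The other measures, and the medians, were compared by exact two-sided permutation tests, which have 20 splits for 3 rats against 3 and no p below 0.1. Nuclei are not replicates, the rat is. Every high-level type that passed is named. Values per rat were averaged with pandas 2.3.3 and numpy 2.4.6, neighbours on the map were found with scikit-learn 1.9.0, and figures were drawn with matplotlib 3.10.9. The limma fit was tested first on simulated data in which a type had the same spread in every group. The group spreads here were unequal, so that test does not bear on how the calls hold under such spreads.

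The library of RK7_4 was the smallest (11898496 UMIs) and that of RK1_4 the largest (49272672 UMIs), and podocytes numbered 56 to 475 nuclei per rat, so the values of RK7_4 are the least precise. Alternatives were other scales, denominators and pseudocounts, edgeR 4.0.16 quasi-likelihood tests on numbers of nuclei, limits of 500 or 1000 UMIs and of 1% mitochondrial UMIs, and each rat left out in turn. Leaving out 3 rats together, and matching nuclei on UMIs without the mitochondrial ones, were added after the data were seen.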

Additional observations from a re-analysis of the deposited data

How the results depend on the processing

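No paired analysis was possible because the rats are named by identifiers that carry no replicate number of the labels, so the fit with a replicate block was not run. Of 204 values under settings other than leaving out 1 rat, 158 kept direction and side of the threshold, 4 were no longer past it, 2 newly passed it and 40 turned. Of 336 values with 1 rat left out, 300 kept both, 10 were no longer past the threshold (2 for untreated obese minus lean and 8 for sGCact minus untreated obese, all in UMIs), 8 newly passed it and 18 turned. Causes were not tested.

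Without RK7_4, RK9_4 and RK61_4 (chosen after the data were seen; untreated obese is then RK16_4 alone), the differences for untreated obese minus lean were 1.03 in log odds of the podocyte share, -0.51 in log2 UMIs, -0.14 in log2 mitochondrial percentage, -0.00486 in S score, -0.00360 in G2M score, 0.15 in log2 relative UMIs, 2.50 genes at matched UMIs and -3.37 percentage points of nuclei over 1%. For sGCact minus untreated obese they were -1.08 (share), 0.41 (UMIs), 0.00321 (S score) and 3.52 (nuclei over 1%), and for sGCstim minus untreated obese -1.22 (share), 0.00519 (S), 0.00498 (G2M) and 0.128 (nuclei over 1%). For sGCact minus sGCstim they were 0.41 (mitochondrial percentage), -0.833 genes and 3.39 percentage points.

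The podocyte share in log odds turned to 0.67, -0.43 and -0.61 (untreated obese minus lean, then sGCact and sGCstim minus untreated obese) without proximal tubule nuclei. In edgeR its difference, on the natural log scale, turned to 0.12, -0.074 and -0.41 with the total as library size and to 0.24, -0.41 and -0.57 with TMM. For sGCstim it also turned to -0.010 on the arcsine scale and -0.11 at no more than 1% mitochondrial UMIs. That limit gave -0.82 (untreated obese minus lean) and 0.74 (sGCact) in log2 UMIs. The mitochondrial difference passed for untreated obese minus lean in a fit of those groups alone (3.42, limma adjusted p = 0.0335) and for sGCact with means over nuclei (-3.08, adjusted p = 0.0453). For sGCact minus sGCstim it turned to 0.073 at 1000 UMIs or more. Medians turned the S score to -0.00405, 0.00426, 0.00306 and 0.00120 in the 4 comparisons. The sGCstim G2M difference turned to 0.00195 at 1000 UMIs or more and 0.000781 at no more than 1% mitochondrial UMIs. The ratio to GEC(Meis2+) turned to -0.76 for untreated obese minus lean and 1.66 for sGCact at no more than 1%, and to -0.46, 2.01 and, for sGCstim, 0.34 at 1000 UMIs or more.

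With 1 rat left out in turn, the share ranged from -0.97 to 0.057 (untreated obese minus lean), -0.11 to 0.92 (sGCact), -0.32 to 0.70 (sGCstim) and -0.12 to 0.52 (sGCact minus sGCstim). Log2 UMIs ranged from -2.05 to -1.11, 1.02 to 1.95 and 0.32 to 1.28 in the first 3 comparisons. Mitochondrial percentage ranged from 2.53 to 5.20, -5.44 to -2.77 and, for sGCact minus sGCstim, -2.39 to 0.41. The sGCstim S score ranged from -0.00674 to 0.00416. G2M scores ranged from 0.00860 to 0.0259, -0.0318 to -0.0145 and -0.0158 to 0.00147. Genes at matched UMIs ranged from -221 to 2.50 (untreated obese minus lean), -59.8 to 164 (sGCstim) and -0.833 to 124 (sGCact minus sGCstim). Nuclei over 1% ranged from -42.5 to 3.39 percentage points for sGCact minus sGCstim.

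The podocytes of RK7_4 number 56, and 3 rats a group cannot bring an exact test below 0.1.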
